A study of Mus musculus with 4 samples.

Results

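Rab genes encode the small GTPases that give the membranes of the cell their identity and direct vesicles between them. Here they were followed in liver macrophages after acetaminophen (APAP), a painkiller whose overdose destroys hepatocytes. The members are all gene IDs of the count table whose mouse symbol is Rab followed by a number and at most a letter and a digit, which gave 57 genes of 29247 gene IDs in all. The rule itself uses names only. The symbols Rab3c and Rab9b fit the same rule but matched no gene ID of the count table. Of the 57 genes, 52 passed the filter on low counts and were tested, and the other 5 (Rab15, Rab26, Rab33a, Rab39b and Rab40b) stayed under 0.2 CPM (read counts scaled to a common library size) in every library.

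All libraries came from macrophages sorted by flow cytometry from the liver of C57BL6J mice aged 8 weeks. In 3 libraries the cells were Cxcr4+ macrophages collected 72 h after 300 mg/kg APAP was given intraperitoneally, and the other library held control macrophages. For the control, the labels name neither an injection nor a Cxcr4 gate, so what APAP did and what the sort did cannot be told apart. Nothing in the labels ties the 3 APAP libraries to separate animals. The p-values therefore measure only how far these samples spread, and that spread may be technical. The control is 1 library, so the error of its values cannot be estimated. The test takes its spread from the APAP libraries and assumes the same spread for the control.

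As background, a Rab protein works as a switch. Exchange factors load it with GTP on a membrane, where it recruits effectors such as tethers and motors, and GTPase-activating proteins switch it off, after which a dissociation inhibitor lifts it from the membrane by its prenyl tail. In macrophages an engulfed particle passes from a Rab5 compartment to a Rab7 compartment before it fuses with lysosomes, while Rab11 and Rab4 return receptors to the surface and Rab27 and Rab3 serve regulated secretion.

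Some of these genes carry in their promoter the E-box CACGTG, the core of the element through which the transcription factor TFEB and its relatives act on lysosomal genes. The 5 Rab genes with this motif are shown because they include Rab20 and Rab27a, which changed in opposite directions. RefSeq's promoter table (build GRCm38.p6) held 46 of the 57 Rab genes with 58 promoters, and the 250 bases before each start were searched on both strands. The windows below have 30 bases each, run 5′ to 3′ on the strand of the gene, and show the motif in capitals.
Rab20, chr8:11478669-11478698, minus strand: cggccgggcaccCACGTGgtcgcagggctg
Rab27a, chr9:73063898-73063927, plus strand: cttgCACGTGctcctccgtctgtctgaacc
Rab5a, chr17:53478987-53479016, plus strand: aattggagaagaCACGTGacgcaaccccac
Rab5a, chr17:53479127-53479156, plus strand: acccggggatgtCACGTGacttcggccccg
Rab21, chr10:115315604-115315633, minus strand: gcccaccgcggtCACGTGacgaggggtgtg
Rab23, chr1:33719666-33719695, plus strand: cttcagtgctacCACGTGagtctcaggtgg
In Rab20 the motif begins 46 bases before the annotated start. In Rab27a it begins 246 bases before the start of the promoter at chr9:73063898-73064147. The Rab27a promoter at chr9:73044560-73044809 held no match, and neither did the Rab23 promoter at chr1:33720169-33720418. A match was present in 5 of 58 Rab promoters (8.62%) and in 6.02% of all 32851 promoters of the table. The shorter hypoxia response core ACGTG, which lies within CACGTG and so overlaps it, was found in 10 Rab promoters (17.2%, against 16.6% of all). The AP-1 site TGAGTCA was found in 2 (3.45%, against 4.46%) and the core of the macrophage factor PU.1, GAGGAAG, in 5 (8.62%, against 10.6%). As the values below show, of the 5 genes with CACGTG, Rab20 was lower, Rab27a was higher, and Rab5a, Rab21 and Rab23 did not pass the test.

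Total counts ran from 48282283 to 56702837 after APAP, with 49950909 in the control. For CPM the totals were multiplied by TMM (trimmed mean of M-values) factors of 1.03 to 1.04 for APAP and 0.90 for the control. Rab genes took 0.365% to 0.386% of all counts after APAP, against 0.374% in the control. Low counts were often even numbers: among counts of 1 to 20, 65.3% to 66.0% were even after APAP and 74.0% in the control, against 47.3% to 50.6% among counts of 1000 to 5000, so a count of 10 may stand for fewer independent reads. The sort was checked on 7 defining macrophage genes, whose summed level was 15751 to 18295 CPM after APAP and 18451 CPM in the control. Of these genes 3 were called lower (42.9%, Adgre1, Cd68 and Fcgr1) and 1 higher (14.3%, Mertk), with a median log2 fold change of -0.42. Over all genes tested, 18.9% were called lower and 25.4% higher.

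Many cell type markers differed between the groups. Their counts of calls stand beside 25.4% of all genes tested called higher and 18.9% called lower. Of 8 Kupffer cell genes, markers of the resident liver macrophage, 7 were called lower, with a sum of 14494 to 17712 CPM against 35810 CPM in the control. The other, Marco, lay above the control in every APAP library (886 to 1419 against 779 CPM) but did not pass (adjusted p = 0.109). Of 8 monocyte genes 7 were called higher (702 to 871 against 196 CPM, with Chil3 at 0 in the control). The other, Plac8, was called lower, at 39.4 to 51.0 CPM against 148 CPM in the control. All 8 B cell genes were higher (392 to 588 against 69.2 CPM, Cr2 at 0 in the control). So were 6 of 6 plasmacytoid dendritic cell genes (178 to 205 against 92.7 CPM, Siglech at 0 in the control). Of 7 conventional dendritic cell genes 6 were higher (87.5 to 120 against 76.6 CPM), while Batf3 was called lower (21.1 to 26.4 against 57.3 CPM). Higher too were 5 of 7 NK cell genes (24.3 to 33.5 against 7.41 CPM). The same held for 5 of 8 T cell genes (101 to 137 against 65.2 CPM). Of 7 neutrophil genes 3 were higher (59.1 to 160 against 45.8 CPM; Ly6g at 0 in the control), and of 8 hepatocyte genes 7 were lower (247 to 419 against 864 CPM). The 6 liver endothelium genes had 1 higher and 2 lower, and the 8 stellate cell and cholangiocyte genes had 3 higher and 2 lower. Among platelet and megakaryocyte genes, 1 of 4 tested was lower. The part of these cells in the Rab results was not tested. In sorted bulk samples, fewer cells of a type and less RNA per cell cannot be told apart.

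Rab genes changed in both directions, and most changes were under 2-fold. At an adjusted p of 0.05, 11 of the 52 tested Rab genes were higher in the APAP libraries (21.2%) and 12 were lower (23.1%), while the same test called 25.4% of all 18715 genes tested higher and 18.9% lower (44.3% in either direction). Both Rab shares were near this background. Called changes of at least 2-fold numbered 4 upward (Rab44, Rab27b, Rab38 and Rab27a) and 1 downward (Rab20), against 15.2% and 7.38% of all genes. The median log2 fold change of the 52 Rab genes was -0.12, against 0.08 over all genes tested. Scaling by library totals without TMM moved these medians to 0.08 and 0.29, so the Rab median has no fixed sign, and stayed below that of all genes under both scalings. The control lay below all APAP libraries for 19 Rab genes, above all for 26 and inside their range for 7, whereas over all genes tested it lay below for 45.7%, above for 39.2% and outside the range in either direction for 84.8%. The APAP libraries were close to each other: among the 35 Rab genes with a mean of at least 10 CPM, the coefficient of variation over the 3 libraries had a median of 4.29% and a maximum of 19.9%.

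**Figure D1:**
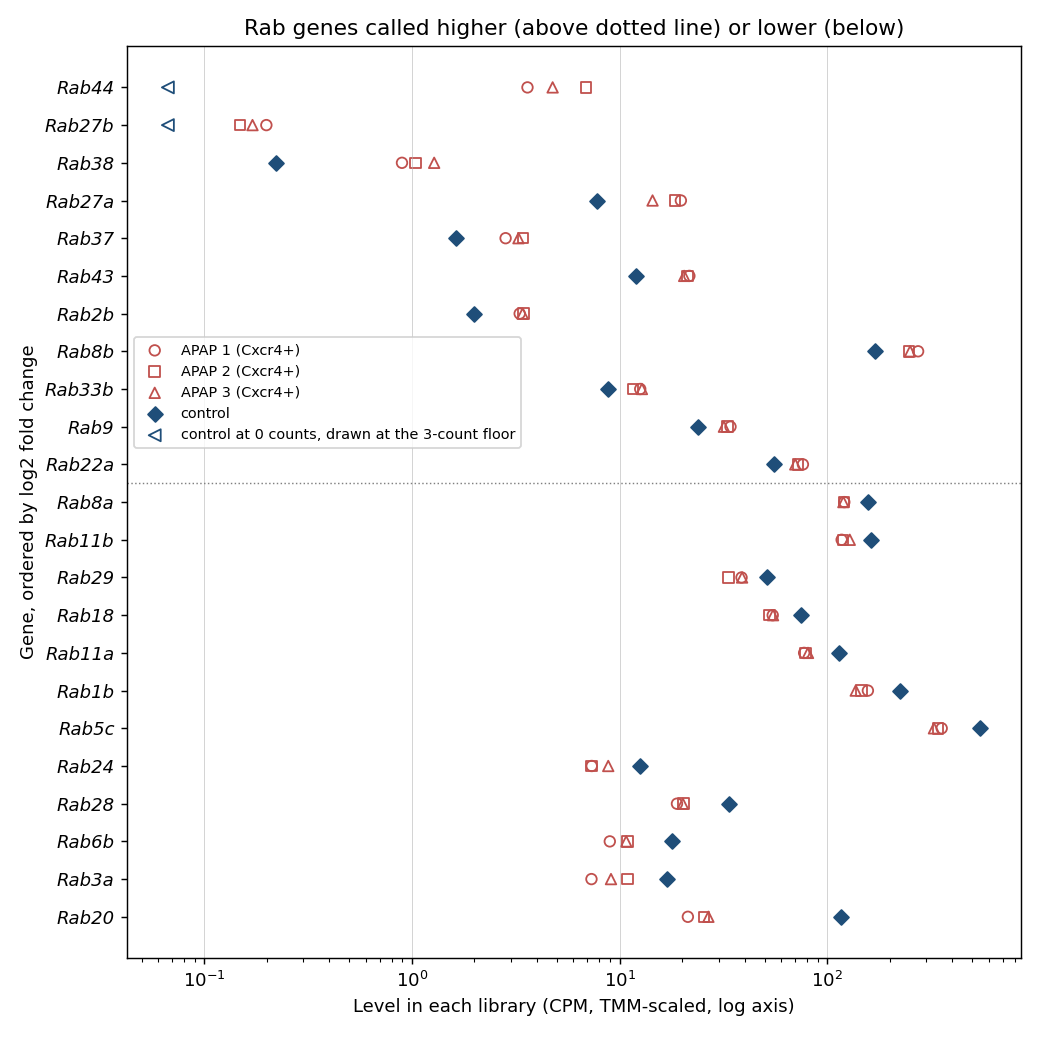
Level of each called Rab gene in each library (CPM, log axis), with 1 point per library, the genes ordered by log2 fold change and a dotted line between the 11 higher and the 12 lower genes; open left-pointing triangles mark a control at 0 counts, drawn at the floor of 3 counts. Rab20 shows the widest gap among the lower genes, with 21.3 to 26.8 CPM after APAP and 116 CPM in the control.

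The most abundant Rab genes per length of exon were those of endosomes, lysosome-related organelles and the early secretory pathway. On the scale of CPM per kilobase of exon, Rab5c led in the control with 248, followed by Rab32 with 165, Rab7 with 123 and Rab1b with 98.4. In the APAP libraries the same 4 genes led in the same order, with 156 ± 6.69 for Rab5c, 152 ± 6.14 for Rab32, 108 ± 7.40 for Rab7 and 64.7 ± 4.37 for Rab1b (SD, n = 3). Rab5c and Rab32 did not differ there beyond their spread. Rab20 went from rank 5 in the control (83.7 CPM per kilobase) to rank 18 in the APAP libraries (17.6 ± 2.06), and Rab8b from rank 12 (35.8) to rank 6 (54.4 ± 3.04). At the other end, 13 Rab genes were under 1 CPM in all 4 libraries and 7 had no count in the control.

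The early endosome and phagosome entry group held both the largest fall among the Rab genes and the most abundant member. Its 8 tested genes had 1 called higher (12.5%) and 2 lower (25%), beside 25.4% and 18.9% of all genes tested. Rab20 (ENSMUSG00000031504), which takes part in the maturation of phagosomes, stood at 21.3, 25.6 and 26.8 CPM after APAP against 116 CPM in the control. All APAP libraries lay far below the control. The fall was 4.74-fold (log2 fold change -2.25, SE 0.13, adjusted p = 0.000868), and a test against a 2-fold change still called it. In the reference annotation 25.6% of the exon length of Rab20 overlaps the opposite-strand gene E230013L22Rik, which had 71 to 100 counts after APAP and 61 in the control, against 1072 to 1570 and 5235 for Rab20.

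Among the Rab5 genes, which control the fusion of early endosomes, 1 of 3 was called, and it was lower. The share called in either direction over all genes tested was 44.3%. Rab5c stood at 356, 342 and 327 CPM after APAP against 544 CPM in the control (log2 fold change -0.67, SE 0.10, adjusted p = 0.00402). Rab5a was at 65.6, 65.4 and 70.1 CPM against 56.8 CPM (0.24, SE 0.09, adjusted p = 0.0858), and Rab5b at 155, 156 and 152 CPM against 167 CPM (-0.12, SE 0.08, adjusted p = 0.297). The control was thus above every APAP library for Rab5c and Rab5b and below them for Rab5a, but Rab5c alone of these passed the test. Over all genes tested, the control lay above every APAP library for 39.2% and below for 45.7%. Rab5a passed without the first APAP library (adjusted p = 0.0421) and with library totals (0.44, adjusted p = 0.0139). After a correction for exon length and GC content its value was -0.06.

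Of the related genes Rab22a and Rab31, which act between endosomes and the Golgi, Rab22a was called. Rab22a had 76.4, 72.5 and 70.2 CPM against 55.5 CPM in the control and was called higher (0.40, SE 0.10, adjusted p = 0.0209). This call was lost without the second APAP library (adjusted p = 0.0846), and the sign turned under the length and GC correction (-0.09). Rab31 was at 171, 180 and 154 CPM against 199 CPM and did not pass (adjusted p = 0.133). Rab21, a regulator of integrin uptake, had 76.7 to 84.0 CPM with the control inside that range at 77.3 CPM, and Rab17, an epithelial Rab, had at most 10 counts in any library.

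Of 7 tested late endosome, lysosome and autophagosome genes, 1 was called higher, 1 was called lower and 5 did not pass the test. The called shares were 14.3% each, beside 25.4% higher and 18.9% lower over all genes tested. Rab7, which drives fusion with lysosomes, stood at 305, 271 and 273 CPM after APAP against 320 CPM in the control (-0.18, SE 0.11, adjusted p = 0.226; without the first APAP library, adjusted p = 0.0282). Rab7b, a relative that acts between late endosomes and the Golgi, was at 67.1, 52.4 and 55.6 CPM with the control inside that range at 61.1 CPM (-0.07, SE 0.15, adjusted p = 0.744). Neither gene separated the groups by more than a small margin. Rab9, which returns cargo from late endosomes to the Golgi, was the member called higher, at 34.2, 33.0 and 31.8 CPM against 23.9 CPM (0.47, SE 0.11, adjusted p = 0.018).

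Rab24, linked to autophagy, was the member called lower, at 7.34, 7.33 and 8.82 CPM against 12.5 CPM (-0.67, SE 0.17, adjusted p = 0.0262). Its exons overlap the opposite-strand gene Prelid1 over 62.4% of their length. Prelid1 had 7226 to 8355 counts after APAP and 8558 in the control, against 369 to 517 and 561 for Rab24. The strand setting of the counting is not given in the sources used here. Without the second APAP library neither Rab9 (adjusted p = 0.0704) nor Rab24 (adjusted p = 0.0911) passed. Rab24 also lost its call under the length and GC correction (-0.36, adjusted p = 0.166) and with library totals (-0.47, adjusted p = 0.0758). The group's other tested members, Rab12, Rab39 and Rab42, did not pass (adjusted p = 0.126, 0.463 and 0.208).

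Among the 11 tested recycling genes, 1 was called higher (9.09%) and 3 lower (27.3%), beside 25.4% and 18.9% of all genes tested. The Rab8 pair moved apart and both Rab11 genes were lower. Rab8b, which carries cargo to the plasma membrane, stood at 274, 248 and 251 CPM after APAP against 169 CPM in the control, a 1.52-fold rise (log2 fold change 0.61, SE 0.11, adjusted p = 0.00726). Its paralogue Rab8a was at 121, 121 and 120 CPM against 157 CPM (-0.38, SE 0.08, adjusted p = 0.0137). For Rab8b every APAP library was above the control, as for 45.7% of all genes tested. For Rab8a every one was below it, as for 39.2% of all genes.

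Rab11a, the marker of recycling endosomes, was at 77.5, 78.4 and 80.8 CPM against 114 CPM (-0.52, SE 0.08, adjusted p = 0.00554). Rab11b was at 117, 119 and 128 CPM against 162 CPM (-0.41, SE 0.09, adjusted p = 0.0168). The control lay above all APAP libraries for both genes, as it did for 39.2% of all genes tested. The calls of Rab8a and Rab11b were lost without the second APAP library (adjusted p = 0.0806 and 0.0875) and with library totals (adjusted p = 0.124 and 0.115), whereas those of Rab8b and Rab11a were kept in every alternative run.

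The other 7 tested recycling genes did not pass. Rab14, of endosomes and the trans-Golgi, was at 259, 254 and 241 CPM against 208 CPM (0.27, SE 0.09, adjusted p = 0.061); it passed without the first APAP library (adjusted p = 0.0282) and with library totals (0.48, adjusted p = 0.0114), and was called lower under the length and GC correction (-0.60, adjusted p = 0.00576). Its exons span 13589 bases, against a median of 3531 over the tested Rab genes. Rab10, Rab35, Rab13 and Rab4b lay below the control in all APAP libraries (log2 fold change -0.46 to -0.08, adjusted p = 0.0949 to 0.484). Rab4a, the marker of fast recycling, was scarce at 0.756, 0.558 and 0.341 CPM against 0.401 CPM (0.45, SE 0.61, adjusted p = 0.568), and Rab25 had at most 12 counts in any library.

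**Figure D2:**
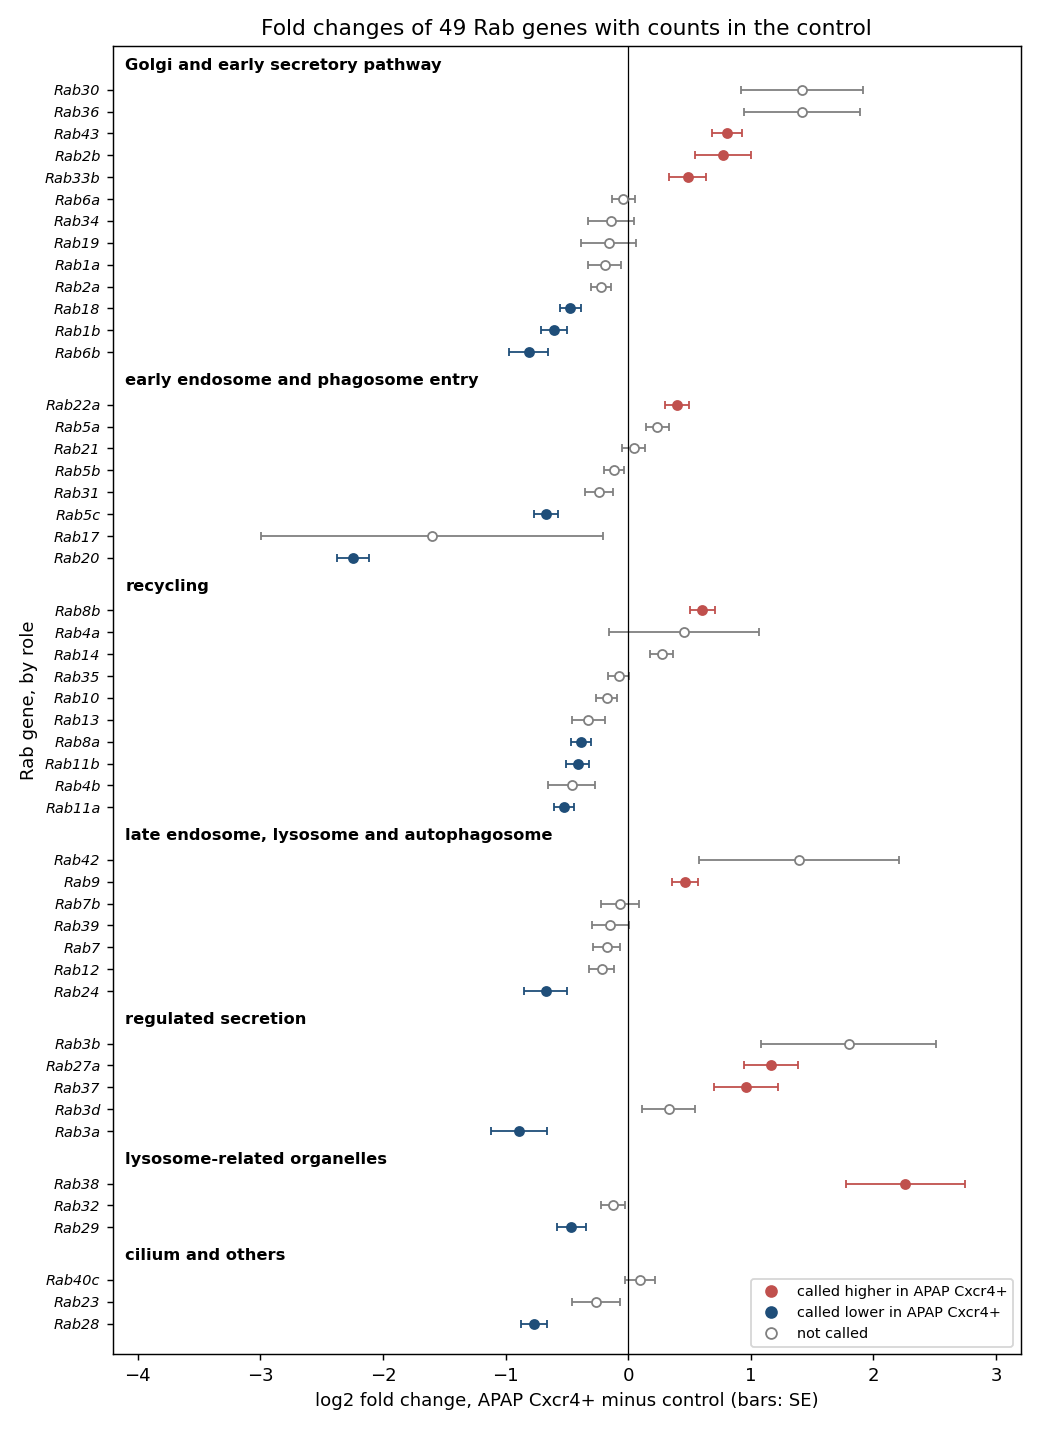
Log2 fold change with its standard error for the 49 tested Rab genes with counts in the control, grouped by role and coloured by call. Rab20 at -2.25 and Rab38 at 2.26 are the called genes farthest from 0, and most other values lie within 1 of it.

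Of 13 tested Golgi and early secretory genes, 3 were called higher and 3 lower (23.1% each). Both shares were near the 25.4% and 18.9% of all genes tested. Rab1b, which directs transport from the endoplasmic reticulum to the Golgi, stood at 157, 146 and 137 CPM after APAP against 224 CPM in the control (-0.61, SE 0.10, adjusted p = 0.00683). Rab1a, its close paralogue, was at 249, 207 and 208 CPM against 253 CPM (-0.19, SE 0.13, adjusted p = 0.276). Both lay below the control in every APAP library, Rab1a by a margin that its first library nearly closed, and without that library Rab1a passed (-0.29, adjusted p = 0.0122).

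Rab6b, of retrograde Golgi traffic, was also lower, at 8.98, 10.9 and 10.8 CPM against 17.96 CPM (-0.81, SE 0.16, adjusted p = 0.0115). Rab18, of the endoplasmic reticulum and lipid droplets, was lower at 54.7, 52.7 and 54.9 CPM against 75.1 CPM (-0.47, SE 0.09, adjusted p = 0.00811; without the second APAP library, adjusted p = 0.053). Rab6a, the main Rab6 form, had 49.2 to 52.8 CPM with the control inside that range at 52.2 CPM.

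The higher members of the Golgi group were Rab43, Rab2b and Rab33b. Rab43, which has been tied to Golgi traffic and to cross-presentation, stood at 21.7, 21.2 and 20.5 CPM against 12.1 CPM (0.81, SE 0.12, adjusted p = 0.00497). The same-strand gene model Gm45140 covers 75.4% of its exon length and had 1 to 18 counts after APAP and 0 in the control. Rab2b was at 3.30, 3.44 and 3.41 CPM against 1.98 CPM (0.77, SE 0.23, adjusted p = 0.0387). The opposite-strand gene Gm43766 covers 59.3% of its exon length and had 6 to 13 counts after APAP and 8 in the control. Tox4, also on the opposite strand, covers 4.68% and had 5995 to 6895 counts after APAP and 4992 in the control. Rab2b itself had 166 to 200 and 89 counts. Rab33b, of Golgi and autophagosome formation, was at 12.6, 11.6 and 12.8 CPM against 8.81 CPM (0.49, SE 0.15, adjusted p = 0.0439).

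For Rab43, Rab2b and Rab33b the control lay below all APAP libraries, as it did for 45.7% of all genes tested. The calls of Rab2b and Rab33b were lost without the second APAP library (adjusted p = 0.112 and 0.0977) and without the third (adjusted p = 0.0647 and 0.0741). They were also lost under the length and GC correction (adjusted p = 0.0797 and 0.056) and with voom (adjusted p = 0.0578 and 0.0582). Rab2a (109 to 113 CPM against 130 CPM, adjusted p = 0.078) passed without the first APAP library (adjusted p = 0.0343), as did the scarce Rab30 (0.637 to 0.956 against 0.311 CPM, adjusted p = 0.0623 with all libraries and 0.0428 without it). Rab19, Rab34 and Rab36 did not pass (adjusted p = 0.589, 0.57 and 0.055).

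Of 7 tested genes of regulated secretion, 4 were called higher and 1 lower, with a median log2 fold change of 1.17, beside 25.4% and 18.9% of all genes tested. Without the second APAP library 2 were higher and 1 lower, and under the length and GC correction 2 were higher and 0 lower. Rab27a (ENSMUSG00000032202), which docks secretory granules and exosome-bearing bodies at the plasma membrane, stood at 19.7, 18.5 and 14.4 CPM after APAP against 7.81 CPM in the control. The lowest APAP library was still well above the control, and the rise was 2.25-fold (log2 fold change 1.17, SE 0.22, adjusted p = 0.00947). Rab44 (ENSMUSG00000064147), a large atypical Rab known from granule release in mast cells, had 3.60, 6.91 and 4.76 CPM (181, 371 and 279 counts) and no count in the control. Against a floor of 3 counts in the control library, which covers counting error only, it was at least 76.2-fold higher (adjusted p = 0.00173).

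Rab27b, the paralogue of Rab27a, had only 10, 8 and 10 counts and none in the control. By the same floor, and taking each count as 1 read, it was at least 2.59-fold higher (adjusted p = 0.0377). Rab37, also described in mast cell secretion, was at 2.83, 3.43 and 3.26 CPM against 1.62 CPM (0.96, SE 0.26, adjusted p = 0.0298). Both calls were lost without the second APAP library (adjusted p = 0.076 for Rab27b and 0.0926 for Rab37), and under the length and GC correction (adjusted p = 0.0692 and 0.0887). That of Rab27b was also lost without the third library (adjusted p = 0.0549) and with the Wald test (adjusted p = 0.063). Without the first library, and also with all counts halved, Rab27b no longer passed the count filter. Of 6 basophil and mast cell markers, Mcpt8, Cpa3, Fcer1a and Prss34 had at most 8 counts in any APAP library and none in the control, while Kit was higher (7.40 ± 0.571 CPM, SD, n = 3, against 3.27 CPM) and Gata2 did not pass. Ly6g, the defining neutrophil marker, had 2 to 7 counts in the APAP libraries, while Mmp8 stood at 42.7, 22.1 and 15.7 CPM against 0.134 CPM and Cxcr2 at 14.5, 11.7 and 2.42 CPM against 0.089 CPM. Of the other neutrophil markers, Retnlg was called higher (4.52 to 10.5 against 0.49 CPM), S100a8 and S100a9 did not pass (adjusted p = 0.0809 and 0.0817), and Mmp9 had the control inside its APAP range (24.6 to 51.4 against 40.2 CPM).

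Among the Rab3 genes, known from the release of secretory vesicles, only Rab3a was called. Rab3a was lower, at 7.32, 10.9 and 9.09 CPM against 16.9 CPM (-0.89, SE 0.23, adjusted p = 0.025), a call that was lost with library totals (-0.69, adjusted p = 0.053) and under the length and GC correction (-0.62, adjusted p = 0.0801). Rab3d had 56.3, 50.2 and 38.2 CPM with the control near the lowest of these at 38.4 CPM (0.33, SE 0.22, adjusted p = 0.253; without the third APAP library, adjusted p = 0.0193). Rab3b stayed under 0.64 CPM and did not pass.

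Of the Rab genes of lysosome-related organelles, Rab32 was abundant and did not pass the test, and Rab38 was scarce and higher. Rab32 stood at 339, 358 and 367 CPM after APAP against 386 CPM in the control (-0.12, SE 0.10, adjusted p = 0.328), and its sign turned with library totals (0.08) and under the length and GC correction (0.12). Rab38, which shares the melanosome pathway with Rab32, was at 0.896, 1.04 and 1.28 CPM (45, 56 and 75 counts) against 0.223 CPM (10 counts), a 4.79-fold rise (2.26, SE 0.49, adjusted p = 0.0143). Every APAP library was above the control for Rab38, as for 45.7% of all genes tested, at a level far under that of Rab32. Rab29, which recruits the kinase LRRK2 to membranes, was lower at 38.7, 33.5 and 38.9 CPM against 51.1 CPM (-0.47, SE 0.12, adjusted p = 0.0247). That call did not hold without the second APAP library (adjusted p = 0.0727), with library totals (adjusted p = 0.128) or under the length and GC correction, where the value was 0.00 (adjusted p = 0.993).

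Of the remaining tested genes, Rab28, a Rab of the cilium, was lower at 18.9, 20.3 and 20.2 CPM against 33.7 CPM (-0.77, SE 0.11, adjusted p = 0.00391). Rab23, also of the cilium, had 3.77 to 4.16 CPM against 4.81 CPM and did not pass (-0.26, adjusted p = 0.307), but was called lower under the length and GC correction (-0.84, adjusted p = 0.0207). Rab40c did not pass, at 19.5 to 21.1 CPM against 19.2 CPM (adjusted p = 0.538).

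Since paralogues were counted in the same libraries, their shares of a family's level do not depend on the scaling of the libraries. They can still depend on a length or GC bias between libraries. Within the Rab8 pair, Rab8b held 69.1%, 67.0% and 67.4% of the summed CPM per kilobase after APAP and 51.6% in the control. Within the Rab5 family, Rab5c held 76.7%, 75.9% and 75.1% against 83.1%, while Rab5a held 5.88%, 6.03% and 6.71% against 3.61%. In both families the control lay outside a narrow APAP range.

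Rab1b held 51.4%, 54.2% and 52.5% of the Rab1 pair against 59.7% in the control, and Rab22a 19.1%, 17.6% and 19.5% of its pair with Rab31 against 12.9%. Rab3a held 19.5%, 28.9% and 30.7% of the Rab3 family against 45.2%, with a wider spread. Rab6b held 11.2% to 14.0% of its pair against 20.3%. In the Rab11 pair (Rab11a 56.3% to 57.5% against 59.0%) and the Rab7 pair (Rab7 89.0% to 90.2% against 90.3%) the control lay just outside the APAP range. These shares were not tested, and with 1 control library the difference has no replicate check on that side. Shares were not computed with the length and GC correction. Under it the order of the members' log2 fold changes turned in the Rab11 pair (Rab11a -0.43, Rab11b -0.80). It also turned in the Rab7 pair (Rab7 0.015, Rab7b -0.26), and held in the other families named here.

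**Figure D3:**
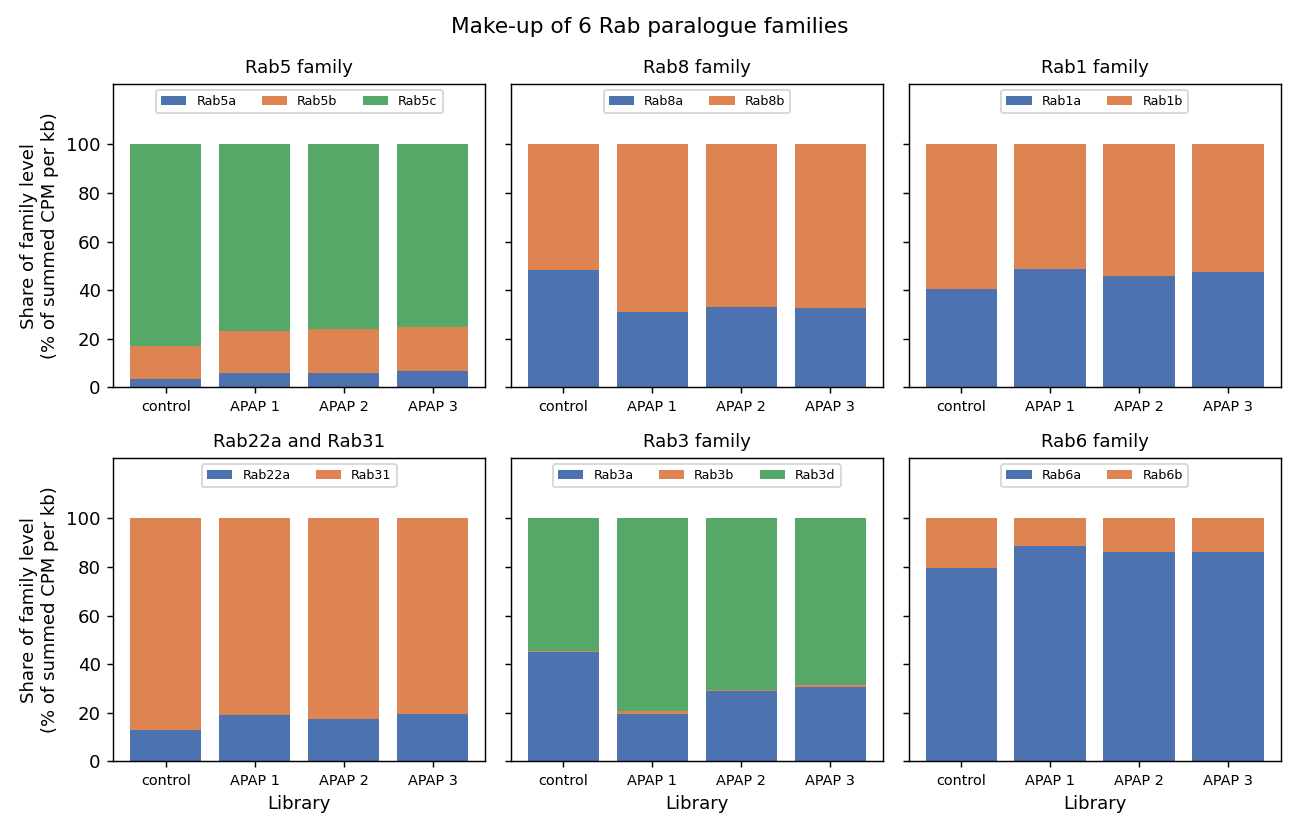
Share of each paralogue in the summed CPM per kilobase of its family, in percent, for the control and each APAP library. The share of Rab8b is 51.6% in the control and 67.0% to 69.1% in the APAP libraries, and that of Rab5c is 83.1% and 75.1% to 76.7%.

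Genes of proteins that load, switch and read Rab GTPases were mostly higher where called, but not after correction for exon length and GC content. Of 148 listed genes 145 were in the table and 139 were tested; 65 were higher (46.8%) and 11 lower (7.91%), against 25.4% and 18.9% of all genes tested, with a median log2 fold change of 0.35. Under the correction 33 were higher and 42 lower (median -0.10) beside 18.0% and 20.3% of all genes. The regulators have long exon lengths, with all annotated exons of a gene merged. Their median was 6733 bases, against 3427.5 over all genes tested and 3531 for the Rab genes. Across genes tested, log2 fold change and exon length had a Spearman correlation of 0.223, given as a description over genes of the same 4 libraries.

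Among 8 genes of prenylation and membrane extraction, 2 were higher and 2 lower (25% each), beside 25.4% and 18.9% of all genes tested. Rabac1, a membrane acceptor of prenylated Rab proteins, fell from 148 CPM in the control to 61.8, 68.3 and 64.3 CPM (log2 fold change -1.19, SE 0.09, adjusted p = 0.00107). The escort proteins that present Rab proteins for prenylation rose, with Chm at 31.6, 32.4 and 32.8 CPM against 17.0 CPM (0.92, SE 0.11) and Chml at 12.98, 10.1 and 11.1 CPM against 4.90 CPM (1.22, SE 0.21). Rabggta, the alpha subunit of the transferase that adds the tail, fell by 0.52 on the log2 scale (SE 0.11, adjusted p = 0.0126). That call was lost without the second APAP library (adjusted p = 0.0577) and with library totals (adjusted p = 0.0569). The dissociation inhibitor Gdi2 was at 639, 707 and 684 CPM against 655 CPM and did not pass.

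Exchange factors had 20 of 36 tested members higher (55.6%) and 3 lower (8.33%, Rinl, Sh3bp5 and Rin2), beside 25.4% and 18.9% of all genes tested. Under the length and GC correction 7 were higher and 11 lower, beside 18.0% and 20.3% of all genes. Dennd3, an activator of Rab12, stood at 6.43, 7.74 and 7.13 CPM against 0.623 CPM (3.51, SE 0.27, adjusted p = 0.00107; 3.15 corrected). Dennd4a and Dennd4c, activators of Rab10, were higher by 1.62 (SE 0.15) and 1.80 (SE 0.19), and by 0.63 and 1.20 when corrected. Rgp1, a subunit of the activator of Rab6, was higher by 0.87 (SE 0.10).

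GTPase-activating proteins had 17 of 37 higher (45.9%) and 2 lower (5.41%, Tbc1d10a and Tbc1d13), beside 25.4% and 18.9% of all genes tested. When corrected, 9 were higher and 11 lower, beside 18.0% and 20.3% of all genes. Tbc1d16, which acts on Rab4a, was at 56.4, 55.5 and 49.6 CPM against 21.1 CPM (1.35, SE 0.12, adjusted p = 0.00138), and Rabgap1l at 15.2, 17.0 and 12.9 CPM against 2.63 CPM (2.52, SE 0.23; 1.504 corrected). Both groups of values were well apart. Rab3gap2, a subunit of the complex that acts on Rab3 and Rab18, and Tbc1d23 were higher by 0.87 and 0.75, but did not pass when corrected (0.14 and 0.07, adjusted p = 0.302 and 0.552).

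Effectors of endosomal Rab proteins had 14 of 19 higher (73.7%) and 1 lower (5.26%), beside 25.4% and 18.9% of all genes tested. When corrected, 9 were higher and 3 lower, beside 18.0% and 20.3% of all genes. Eea1, the tether that Rab5 recruits to early endosomes, stood at 59.5, 57.4 and 63.7 CPM against 30.2 CPM (0.996, SE 0.11, adjusted p = 0.00197; 0.33 corrected, adjusted p = 0.0497). Rab11fip5, a Rab11 effector, was higher by 1.47 (SE 0.16) and Mical1, an actin-oxidising enzyme bound by Rab proteins, by 1.67 (SE 0.19). The member that fell was Micall2, an effector of Rab8 and Rab13, at 25.1, 23.9 and 27.3 CPM against 72.7 CPM (-1.51, SE 0.11, adjusted p = 0.00102).

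For Rab7 effectors and the tethering complexes, 6 of 18 were higher (33.3%) and 1 lower (5.56%), beside 25.4% and 18.9% of all genes tested. When corrected, 2 were higher and 5 lower, beside 18.0% and 20.3% of all genes. Fyco1, which links Rab7 vesicles to kinesin, was at 49.4, 56.2 and 55.6 CPM against 21.6 CPM (1.32, SE 0.12, adjusted p = 0.00147; 0.72 corrected). Vps33a, a subunit of the lysosomal tether, was higher by 0.64 (SE 0.09) and Plekhm3 by 0.98 (SE 0.13; 0.26 corrected, adjusted p = 0.157). Vps29 of the retromer, which retrieves cargo from endosomes, fell by 0.52 (SE 0.12, adjusted p = 0.0197), and did not pass without the second APAP library (adjusted p = 0.0745).

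Effectors of secretory Rab proteins included the largest rise among the regulators with counts in the control. Myo5a, the myosin motor that carries Rab27a granules, stood at 190, 141 and 143 CPM after APAP against 1.05 CPM in the control (7.23, SE 0.32, adjusted p = 0.000841; 6.31 corrected). Unc13d, a priming factor bound by Rab27a, was at 43.3, 46.5 and 39.3 CPM against 21.4 CPM (1.01, SE 0.13, adjusted p = 0.00323). Rab27a, Myo5a and Unc13d were each higher in every APAP library than in the control, as were 45.7% of all genes tested. Rph3al, another effector of Rab27 and Rab3, had no count in the control and was at least 9.74-fold higher (adjusted p = 0.00645). The exocyst subunit Exoc4 was higher by 0.47 (SE 0.09, adjusted p = 0.0106), lost this call without the second APAP library (adjusted p = 0.0613), and was called lower when corrected (-0.34, adjusted p = 0.0271). Mlph, which joins Rab27a to Myo5a in pigment cells, was lower at 0.418, 0.633 and 0.375 CPM against 1.29 CPM (adjusted p = 0.0417), a call that was lost without any single APAP library (adjusted p = 0.0512 to 0.0687), with the DESeq2 Wald test (adjusted p = 0.0913) and with library totals (adjusted p = 0.0646). Of the 21 tested members of this group, 6 were higher (28.6%) and 2 lower (9.52%, Mlph and Unc13b). Over all genes tested, 25.4% were higher and 18.9% lower. When corrected, 4 members were higher and 9 lower, beside 18.0% and 20.3% of all genes.

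**Figure D4:**
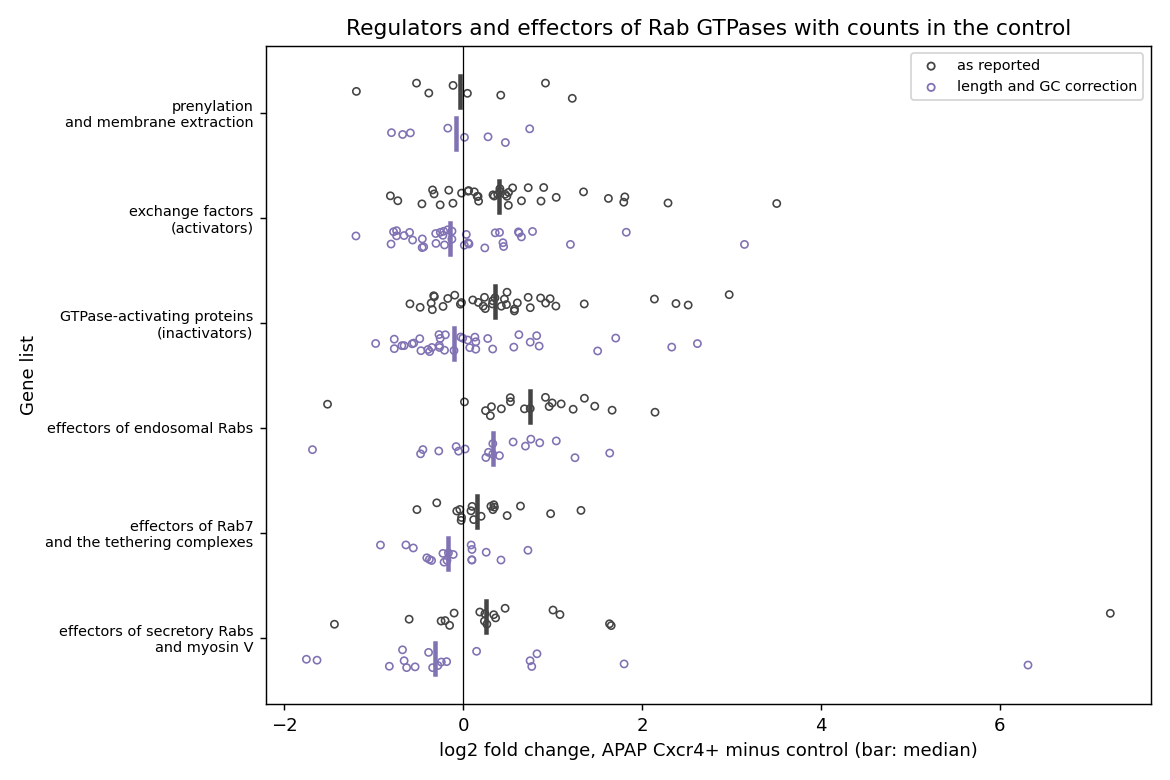
Log2 fold change of the 136 tested regulators and effectors with counts in the control, by list, as reported (dark) and after the length and GC correction (violet), with a bar at the median of the genes drawn. Myo5a at 7.23 (6.31 corrected) stands far to the right of all others, and the medians shift to the left under the correction in every list.

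Of the 23 called Rab genes, 11 kept their call in every alternative that tested them, 5 higher (Rab44, Rab38, Rab27a, Rab43 and Rab8b) and 6 lower (Rab20, Rab6b, Rab28, Rab5c, Rab1b and Rab11a), apart from the test against a 2-fold change, which called Rab44 and Rab20. Without the second APAP library 11 of the 23 calls were lost, leaving 5 Rab genes higher and 7 lower. With the length and GC correction 8 were lost or reversed, and the corrected log2 fold change was -1.79 for Rab20, 1.08 for Rab27a, 2.68 for Rab38, 0.46 for Rab43 and 0.37 for Rab8b. The plot of the called genes under 3 scalings shows these values side by side.

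**Figure D5:**
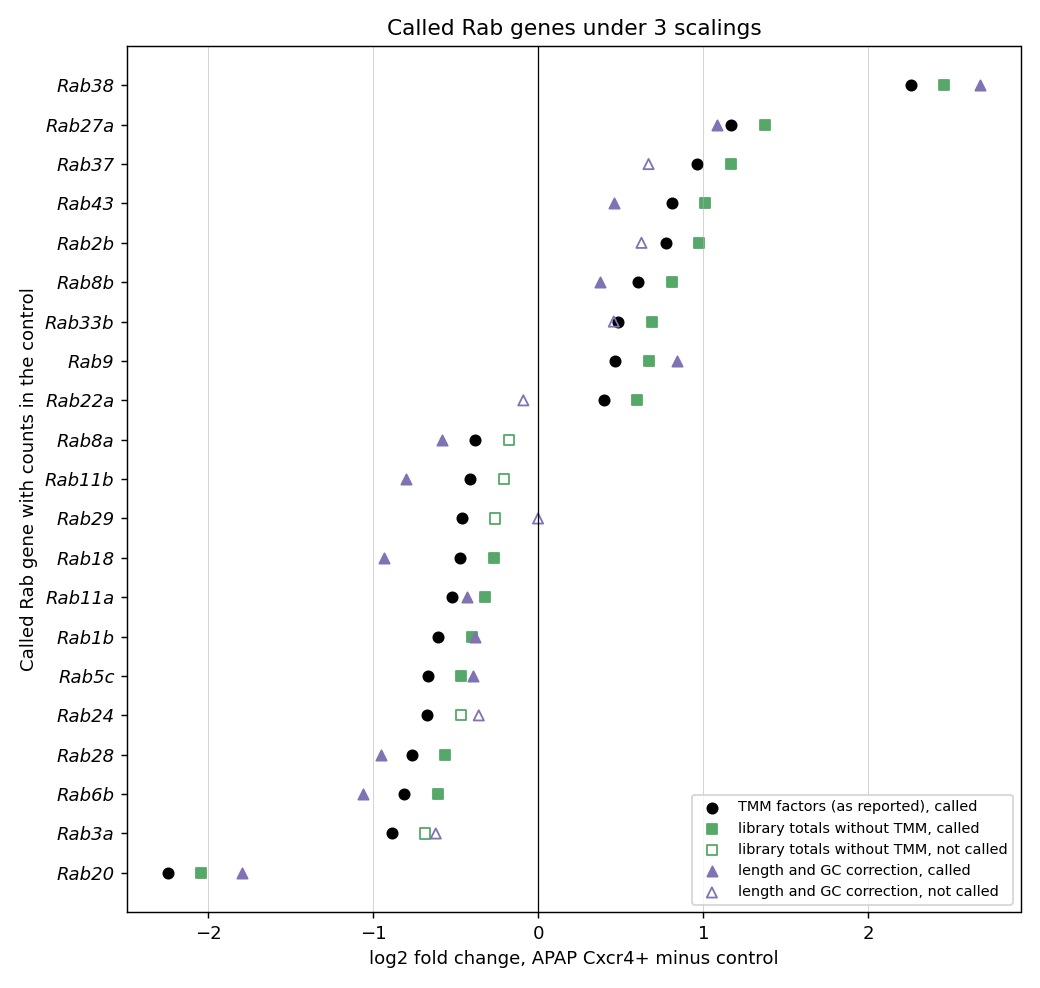
Log2 fold change of the called Rab genes with counts in the control as reported (circles), after the length and GC correction (triangles), and with library totals in place of TMM-scaled totals (squares); open symbols did not pass the test. Rab20 stays between -2.25 and -1.79, while Rab22a changes sign (0.40 as reported and -0.09 corrected).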

How the data were processed

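Per the labels, messenger RNA of 4 libraries was prepared by Tecan universal plus mRNA-seq. The authors deposited whole-number read counts per Ensembl gene, not normalized. HISAT2 and Subread with build mm39 were used, per the submitters' processing notes; their versions, the annotation, the strand setting and how shared reads were treated were not given in the sources used here. Columns of the APAP group have names without replicate numbers, so 1 to 3 follow the table order. Symbols were matched for 28926 of 29247 gene IDs (98.9%).

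The tests used edgeR 4.0.16 (R 4.3.3): filterByExpr (minimum count 10, minimum total 15) kept 18715 genes, TMM factors scaled the totals, and the quasi-likelihood F test without covariates compared the groups, with Benjamini-Hochberg adjustment over all genes tested and a threshold of 0.05. The spread comes from the 3 APAP libraries (2 residual degrees of freedom, median of 3.8 prior degrees of freedom, common biological coefficient of variation 0.162). Scripts were tested on simulated data. Exon lengths, GC content and overlaps came from GENCODE M21, which belongs to another build, and promoters from RefSeq. Exon length merges all annotated exons of a gene, and GC content is that of its longest transcript.

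Full statistics were given for called Rab genes of at least 2 CPM with at least a 2-fold change, called Rab genes of at least 100 CPM, 10 stage markers, and up to 4 called genes per regulator list. The values of other Rab genes were added so that each is accounted for, and Gdi2, Mlph and the other regulators outside this rule were named after their values were seen. Members, roles and lists were chosen with earlier results of these data known.

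The alternatives were DESeq2 1.42.0 size factors and Wald test, upper-quartile factors, no count filter, 5 CPM in at least 1 library, each APAP library left out, limma 3.58.1 voom, glmTreat against a 2-fold change, and a smooth correction for length and GC. Library totals without TMM and halved counts were added after seeing the data.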

Additional observations from a re-analysis of the deposited data

How the results depend on the processing

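No paired analysis was possible because the control is 1 library and the columns carry no replicate numbers. Rab genes called higher (11) and lower (12) numbered 5 to 13 and 7 to 15 with an APAP library left out, the lowest without the second. Regulators called higher (65) and lower (11) numbered 41 to 73 and 5 to 14, and all genes called (8295) 5001 to 9380. Against a 2-fold change the counts were 1, 1, 12, 1 and 1379. A filter of 5 CPM left 7 Rab genes higher, since fewer were tested. The length and GC correction left 6 Rab genes higher, with 33 regulators higher and 42 lower. Library totals without TMM gave 15 Rab genes higher and 7 lower and 85 regulators higher and 5 lower, while all genes moved to 32.4% higher and 12.5% lower. The cause was not tested for these other shifts. Size factors of DESeq2 changed no Rab call, the Wald test and voom lost 2 each, and upper-quartile factors lost 1 (Rab33b).

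Among the Rab genes and the regulators named by the rule, signs turned for the following. Under the length and GC correction they were Rab14 (-0.60), Rab19 (0.28), Rab21 (-0.24), Rab22a (-0.091), Rab2a (0.060), Rab32 (0.12), Rab34 (0.055), Rab35 (0.058), Rab5a (-0.064), Rab7 (0.015) and Exoc4 (-0.34), of which Rab22a and Exoc4 were called higher as reported. Of all 139 regulators tested, 43 changed sign there, 14 of them called higher as reported. With library totals they were Rab10 (0.029), Rab19 (0.044), Rab1a (0.011), Rab32 (0.078), Rab34 (0.065), Rab35 (0.12), Rab39 (0.059), Rab5b (0.087), Rab6a (0.16), Rab7 (0.027) and Rab7b (0.14), and with an APAP library left out Rab7b (-0.18 to 0.0065, positive without the second). With 1 control library, an error specific to that library enters every fold change, and depth limits the 13 Rab genes under 1 CPM, of which 5 were not tested, 7 did not pass and 1 (Rab27b) was called.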
